A study of Mus musculus with 15 samples.

Results

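The insulin-like growth factor (IGF) axis was described by 10 genes, listed by name, of the 21889 genes counted in each library. The set held the ligands Igf1 and Igf2, the receptors Igf1r, Insr and Igf2r, the receptor substrates Irs1 and Irs2, and the secreted binding proteins Igfbp2, Igfbp3 and Igfbp5. All 10 had enough reads to be tested.

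IGF ligands bind the tyrosine kinase receptor encoded by Igf1r, and insulin binds the related receptor encoded by Insr. Both receptors phosphorylate IRS adaptor proteins, which recruit PI3-kinase and switch on Akt and mTOR. The product of Igf2r has no kinase and carries IGF2 to lysosomes, and binding proteins hold ligand outside the cell. In the cerebellum, IGF signalling is known to support the survival and division of granule neuron precursors, and Igf2 is known to contribute to medulloblastoma in mice that lack one copy of Ptch1.

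RNA-seq of poly(A) RNA was made from mouse cerebellar cells purified on Percoll, with 3 libraries in each of 5 groups. Granule neuron precursors came from embryos at E15.5 with the genotype label Math1-GFP, and from wild-type mice at P1, P7 and P14. Medulloblastoma cells (MB) came from Ptch1 heterozygous mice, and their labels give no age. Ptch1 encodes the receptor that restrains Sonic hedgehog signalling. Age and the Math1-GFP label change together between E15.5 and the later ages and cannot be told apart, and genotype, age and tumour state cannot be told apart between MB and the precursors. The labels do not say whether the replicates were separate animals, so p-values measure only the spread between these libraries, which may be technical.

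Total gene counts ran from 12597472 (E15.5 replicate 2) to 43443132 (E15.5 replicate 3). The summed level of 7 granule lineage markers lay between 3150 and 6545 CPM (counts scaled to the size of the library) in all 15 libraries. Among them Atoh1, the factor that defines dividing precursors, ran from 124 to 138 CPM at E15.5 and from 10.9 to 13.1 CPM at P14. It stood at 236 to 322 CPM in MB. In MB against P7, 2 of the 7 were called higher, 3 lower and 2 were not called. Mfap4 was at 680 to 767 CPM at P7 and 16.6 to 38.3 CPM in MB. Neurod1 was at 1146 to 1868 CPM at P7 and 295 to 573 CPM in MB. Pax6 was at 491 to 858 CPM at P7 and 118 to 294 CPM in MB. E15.5 replicate 3 stood apart by transcript length: its genes deviated from the mean of their group by a median of 0.43 (log2) for transcripts of up to 1817 bases and -0.28 for those of 4259 bases or more. In P1 replicate 3 the oligodendrocyte lineage markers summed to 3540 CPM, against 584 and 924 CPM in the other P1 libraries. This sum was 67.9 to 102 CPM at E15.5, 894 to 1741 CPM at P7, 5394 to 5869 CPM at P14 and 652 to 957 CPM in MB. At P14 it was above the granule lineage sum (4764 to 5120 CPM) in every library. Its part in the comparisons with P14 was not tested. The gene counts were also split into 2 counting sets by 1 gene, Tsnax, from its gene count relative to its transcript count. This was 0% to 0.273% in E15.5 replicates 1 and 3, MB replicate 1 and every P7 library, which form 1 set. In the other set it was 92.4% to 94.8%. The labels name no such sets, and the sets were not drawn from other genes. For each of the 10 genes, gene counts relative to transcript counts overlapped between the sets. Since P7 is all in 1 set and P1 and P14 in the other, set and age cannot be told apart when P7 is compared with either. Inside 1 set, P1 against E15.5 rests on E15.5 replicate 2 alone and MB against P7 on MB replicate 1 alone, each assumed to vary like the other groups.

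Most calls came from comparisons with E15.5 and with MB. A gene was called at a Benjamini-Hochberg adjusted p (FDR) under 0.05 by edgeR's quasi-likelihood test over all 15259 genes tested. From E15.5 to P1, 4 of the 10 genes were called, where 46.3% of all genes tested were. Igf1, Igf2 and Igfbp3 were higher (3 of 10, against 25.4% of all genes) and Igfbp2 was lower (1 of 10, against 20.9%). Against E15.5, P7 had 5 of 10 called (37.8% of all genes): Igf1, Igf2, Irs2 and Igfbp3 higher and Igfbp2 lower, with the background at 21.6% higher and 16.2% lower. These comparisons share the E15.5 libraries.

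After birth little passed the test. None of the 10 was called between P1 and P7 by edgeR, where 3.15% of all genes were (1.40% higher at P7 and 1.74% lower), although 3 of the 10 had an unadjusted p under 0.05 and DESeq2 called Igfbp2. Between P7 and P14 only Igfbp2 was called, higher at P14 (10.3% of all genes called, 5.81% higher and 4.51% lower). Between P1 and P14 only Irs1 was called, lower at P14 (8.94% of all genes called, 3.63% higher and 5.31% lower). A test for any difference among the 4 ages called 7 of 10, where 55.7% of all genes were called, and left out the receptors Igf1r, Insr and Igf2r.

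In MB against P7, 4 of 10 were called, where 34.5% of all genes were. Igf2, Igf2r and Igfbp5 were lower (20.7% of all genes) and Irs1 was higher (13.7% of all genes). In MB against P14, which shares the MB libraries, 5 of 10 were called (50.0% of all genes): the same 4 in the same directions, and Igfbp2 lower (27.2% of all genes were lower and 22.9% higher). The median log2 change over the 10 genes was -0.78 in MB against P7 and -0.36 in MB against P14, beside 0.019 and 0.012 over all genes tested. It was 0.43 in P1 against E15.5 and 0.10 in P7 against E15.5, beside 0.031 and 0.020 over all genes. It was -0.34 in P7 against P1 (-0.014 over all genes), 0.13 in P14 against P7 (-0.0050) and -0.17 in P14 against P1 (0.0052). In the comparisons with E15.5 and with MB the share of the 10 genes called was close to that of all genes called, and is no result about the set.

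**Figure D1:**
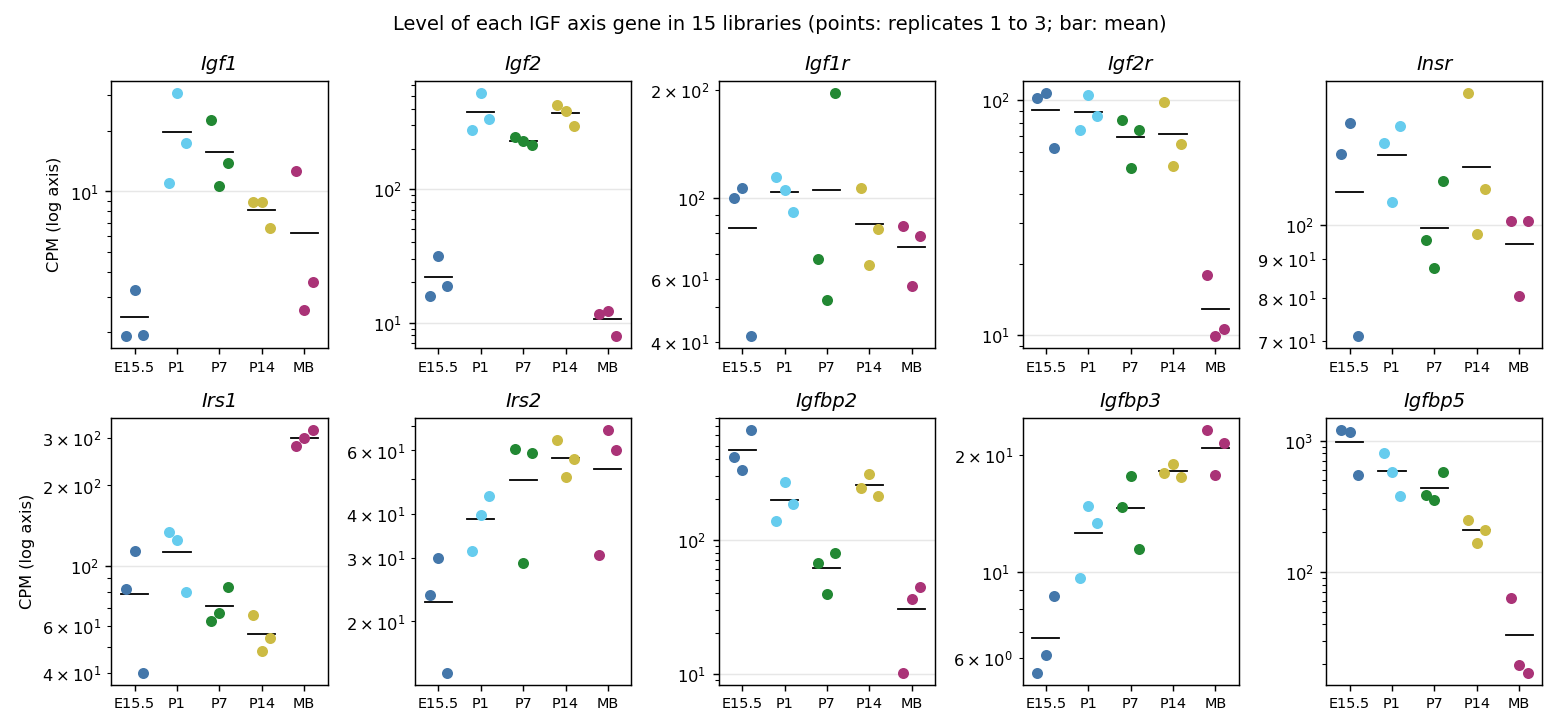
Level in CPM (log axis) of each of the 10 genes in the 15 libraries; points are replicates 1 to 3 from left to right within a group and the bar is their mean. Igf2 is low at E15.5 and in MB and high at the ages between, Irs1 is highest in MB, and Igf1r and Insr overlap between most groups.

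**Figure D2:**
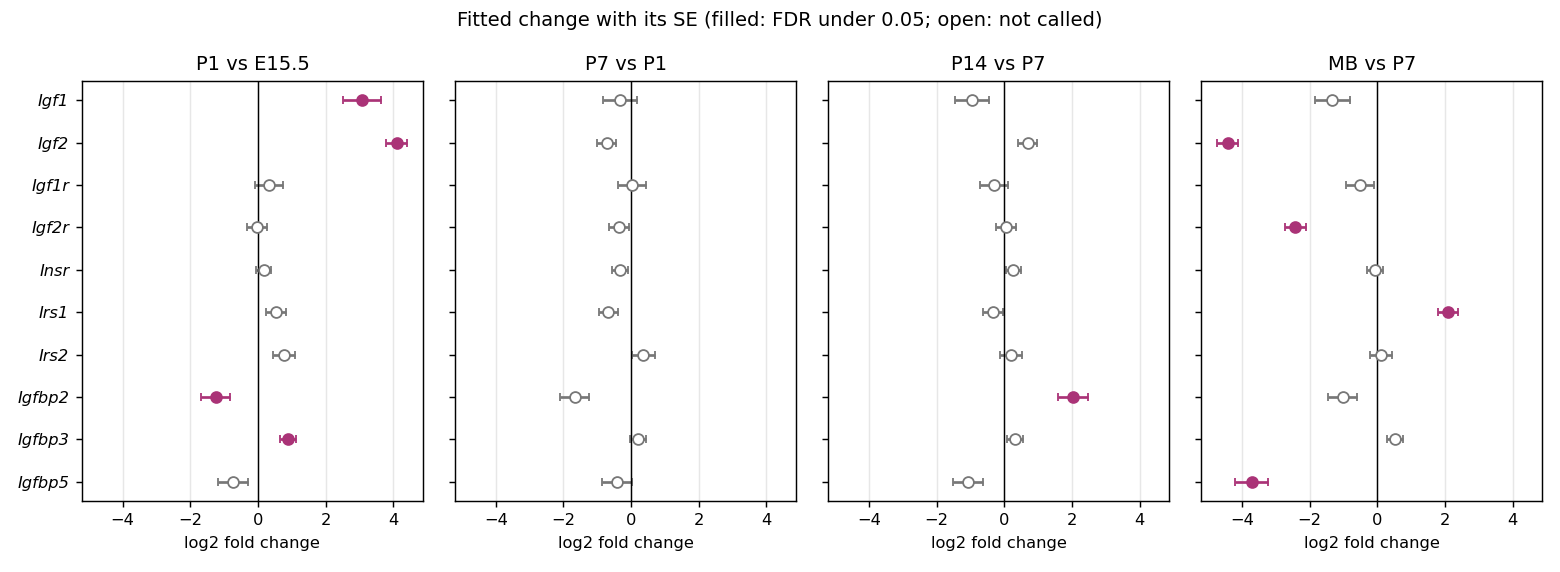
Fitted log2 fold change of each gene with its standard error in 4 comparisons; filled points passed an FDR of 0.05 and open points did not. Igf2 has the largest change of the 10 genes at birth (4.11) and in MB against P7 (-4.43), and no gene passes between P1 and P7.

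Sequences upstream of the 4 genes called in MB against P7 are shown because that comparison rests on these genes, 3 of them lower and 1 higher. Each run is the 250 bases before an annotated RefSeq start in GRCm38.p6, 5′ to 3′ on the gene's strand, and capitals mark each GC box, the letters GGGCGG or CCGCCC that SP-family factors are known to bind. The windows are chr7:142657497-142657746 for Igf2 (minus strand, 1 of 4 annotated starts), chr17:12769707-12769956 for Igf2r (minus), chr1:82291440-82291689 for Irs1 (minus) and chr1:72874866-72875115 for Igfbp5 (minus).
Igf2: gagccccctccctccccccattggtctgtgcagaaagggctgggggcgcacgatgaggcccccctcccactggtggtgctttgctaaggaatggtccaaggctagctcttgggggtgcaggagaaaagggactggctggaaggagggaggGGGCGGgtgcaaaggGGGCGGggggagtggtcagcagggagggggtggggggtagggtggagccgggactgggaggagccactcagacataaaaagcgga
Igf2r: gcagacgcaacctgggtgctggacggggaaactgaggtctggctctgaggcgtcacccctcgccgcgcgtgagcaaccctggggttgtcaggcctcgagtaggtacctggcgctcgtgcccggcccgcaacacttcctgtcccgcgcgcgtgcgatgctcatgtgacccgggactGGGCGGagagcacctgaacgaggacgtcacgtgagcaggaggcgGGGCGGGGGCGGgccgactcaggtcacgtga
Irs1: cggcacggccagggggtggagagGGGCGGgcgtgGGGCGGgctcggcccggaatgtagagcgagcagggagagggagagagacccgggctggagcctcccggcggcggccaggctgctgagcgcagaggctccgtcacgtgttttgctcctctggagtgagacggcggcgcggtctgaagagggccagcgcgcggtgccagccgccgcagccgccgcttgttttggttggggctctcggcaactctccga
Igfbp5: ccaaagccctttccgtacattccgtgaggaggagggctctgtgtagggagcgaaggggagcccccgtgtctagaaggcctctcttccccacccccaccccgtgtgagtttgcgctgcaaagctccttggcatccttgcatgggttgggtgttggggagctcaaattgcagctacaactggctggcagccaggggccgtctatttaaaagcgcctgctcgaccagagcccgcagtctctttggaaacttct

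The printed windows of Igf2, Igf2r and Irs1 hold 2, 3 and 2 GC boxes, and that of Igfbp5 holds none. The printed Igf2 window holds the most of the 4 for that gene, and the others hold 0, 0 and 1. A GC box was in 7 of the 13 windows matched to 9 of the 10 genes, and in 32.7% of 32851 RefSeq windows of the same length. None of the 13 windows holds GACCACCCA, the core read by the Gli factors that act at the end of the hedgehog pathway, which was in 0.225% of all windows. GTAAACA, read by FoxO factors, was in none of the 13 and in 3.17% of all windows, and TATAAA was in none and in 12.4%. Both strands were searched for each motif. These are matches of letters in these windows only.

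Igf2, the fetal growth ligand, is an imprinted gene on chromosome 7 (149836674 to 149845394 in mm9, minus strand). It stood at 15.8, 31.7 and 18.7 CPM in the E15.5 libraries, replicates 1 to 3. It was at 276, 524 and 335 CPM at P1, 245, 227 and 213 CPM at P7, and 426, 383 and 299.5 CPM at P14. In MB it was at 11.6, 12.2 and 7.93 CPM. Every P1, P7 and P14 library was above every E15.5 library, and every MB library was below all of them. The order of group means was P1, P14, P7, E15.5 and MB, and of these neighbours only P1 and P14 overlapped.

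Igf2 rose 17.2-fold from E15.5 to P1 (log2 change 4.11, SE 0.31, edgeR FDR 2.93e-07). Against E15.5 it was 10.4-fold higher at P7 (log2 3.38, SE 0.30, edgeR FDR 1.43e-06). Between the postnatal ages no change was called: the log2 change from P1 to P7 was -0.73 (SE 0.27, edgeR FDR 0.157) and from P7 to P14 it was 0.69 (SE 0.27, edgeR FDR 0.114). In MB, Igf2 was 21.6-fold lower than at P7 (log2 -4.43, SE 0.32, edgeR FDR 1.02e-07) and 34.8-fold lower than at P14 (log2 -5.12, SE 0.33, edgeR FDR 3.51e-08). Its fall against P7 stayed between -4.55 and -4.26 (log2) when any 1 library of the 2 groups was left out. It was -4.30 inside 1 counting set, against MB replicate 1 alone.

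Markers of several cell types other than granule neuron precursors moved with Igf2, and markers of others did not. The 7 endothelial markers summed to 13.4 to 35.1 CPM at E15.5, 406 to 613 at P1, 304 to 363 at P7, 756 to 784 at P14 and 19.3 to 35.4 in MB; 7 of 7 were called higher at P1 than at E15.5 and 7 of 7 lower in MB than at P7. The 8 markers of pericytes, fibroblasts and meninges summed to 23.2 to 40.9 CPM at E15.5, 701 to 1024 at P1, 387 to 644 at P7, 896 to 1061 at P14 and 25.9 to 35.6 in MB, with 8 of 8 higher at P1 than at E15.5 and 7 of 8 lower in MB than at P7. The 5 choroid plexus markers, led by Ttr, summed to 298, 10373 and 3909 CPM in the P1 libraries and to 14.4, 473 and 1979 CPM at P7. In the P7 libraries Igf2 was at 213 to 245 CPM. P1 replicate 2 had the highest level of both Igf2 and the choroid plexus markers. No marker of these 3 lists was at 0 in all libraries of any group. Astroglial and oligodendrocyte lineage markers moved likewise: 6 of 6 and 8 of 8 were higher at P1 than at E15.5. In MB against P7, 5 of 6 and 5 of 8 were lower, with 2 of the 8 higher. Of 5 GABAergic interneuron markers, 4 were lower at P1 than at E15.5. Of 8 microglia and macrophage markers, 4 were higher in MB than at P7 and 0 lower. The part of these cell types in the change of Igf2 was not tested. In such bulk libraries, fewer cells of a type and less RNA per cell cannot be told apart.

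**Figure D3:**
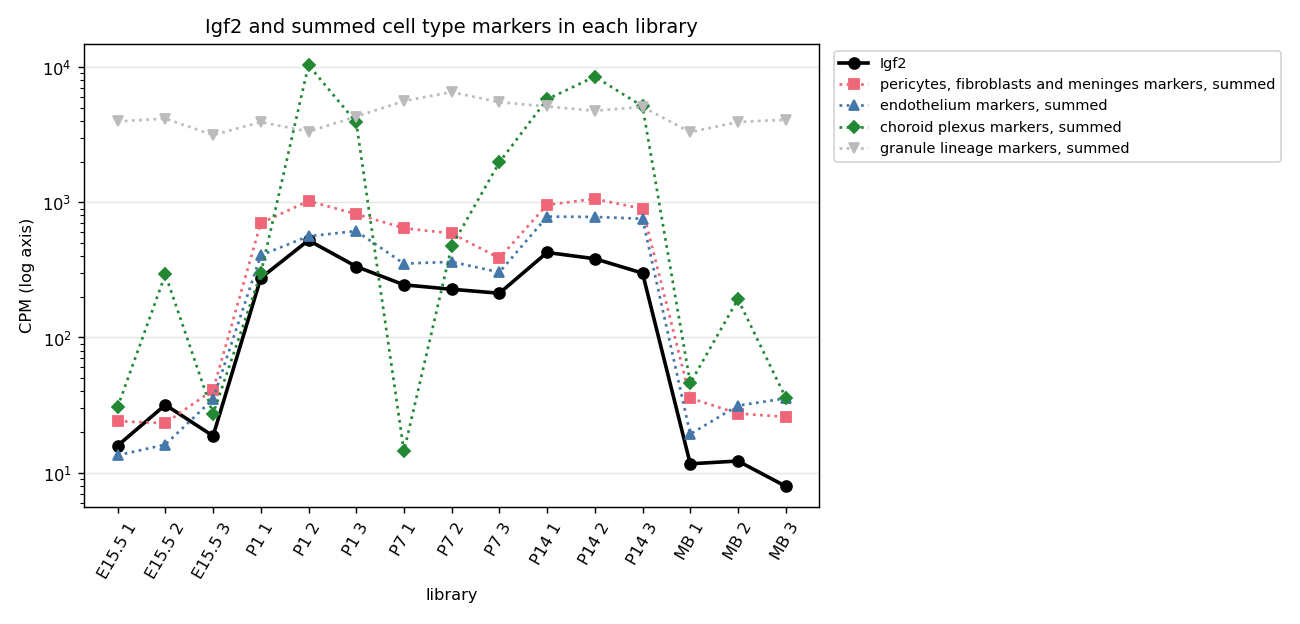
Igf2 (black line) and the summed markers of 4 cell types in each library, in CPM on a log axis. Igf2 and the endothelial and pericyte, fibroblast and meninges sums are low in the E15.5 and MB libraries and high in the 9 postnatal ones. Choroid plexus markers vary from 14.4 to 1979 CPM among the P7 libraries. The granule lineage sum stays between 3150 and 6545 CPM, although 2 of its 7 markers were called higher and 3 lower in MB than at P7.

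Igf1, the ligand that mediates postnatal growth, lies on chromosome 10 (87321010 to 87393640 in mm9, plus strand). It was the least abundant gene of the set at each of the 4 ages when reads were counted per kb of transcript. Those levels leave out reads outside its tabulated transcripts, which held only 9.09% to 32.6% of its gene count at these ages. By gene counts, not scaled to length, its mean was above that of Igfbp3 at P1 (19.8 against 12.6 CPM) and at P7 (15.7 against 14.6 CPM). It stood at 1.92, 3.26 and 1.94 CPM at E15.5, from 39 to 74 counts a library. It was at 11.1, 30.7 and 17.5 CPM at P1, 22.6, 10.6 and 13.8 CPM at P7, 8.87, 8.89 and 6.59 CPM at P14, and 12.6, 2.59 and 3.56 CPM in MB. All postnatal libraries were above all E15.5 libraries, and MB overlapped every other group.

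From E15.5 to P1, Igf1 rose 8.50-fold (log2 3.09, SE 0.56, edgeR FDR 4.67e-04), and P7 was 6.75-fold above E15.5 (log2 2.75, SE 0.56, edgeR FDR 0.00134). The 8 microglia and macrophage markers summed to 5.85 to 22.8 CPM at E15.5. They were at 77.5 to 133 CPM at P1 and 43.1 to 135 CPM at P7. At P14 they were at 131 to 188 CPM, with Igf1 at 6.59 to 8.89 CPM. Of the 8, 7 were called higher at P1 and 6 at P7 than at E15.5, and their part in the rise of Igf1 was not tested. The difference of Igf1 in MB depended on MB replicate 1. Against P7 the log2 change was -1.34 (SE 0.52, edgeR FDR 0.0574), and without that library it was -2.36 (FDR 8.51e-04). Against P14 it was -0.39 (SE 0.51, edgeR FDR 0.556), and without that library -1.40 (FDR 0.0140). MB replicate 1 also held the most RNA of the 8 microglia and macrophage markers, 390 CPM in sum. MB replicates 2 and 3 had 161 and 132 CPM of them, with Igf1 at 2.59 and 3.56 CPM. The part of these markers in the level of Igf1 was not tested.

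Much of the Igf1 signal lay outside its tabulated transcripts. The transcript table held 9.09% to 32.6% of the gene table's count in the 12 precursor libraries and 30.3%, 42.5% and 50.6% in the MB libraries. Counted over the transcripts, Igf1 in MB had a log2 change of 0.52 against P14 (edgeR FDR 0.416) and -0.65 against P7 (edgeR FDR 0.358), so its direction against P14 was not settled.

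The signalling receptors showed no called change in any comparison. Igf1r (chromosome 7, 75097713 to 75371326 in mm9, plus strand) stood at 100.3, 107 and 41.6 CPM at E15.5 and at 114, 106 and 91.9 CPM at P1. It was at 67.8, 52.5 and 196 CPM at P7, 107, 65.3 and 82.3 CPM at P14 and 84.1, 57.1 and 78.8 CPM in MB. Of the 10 pairs of groups, 9 overlapped, and P7 replicate 3 was above every other library. Without that library the log2 change from P1 to P7 went from 0.017 (edgeR FDR 0.990) to -0.79 (FDR 0.245), and that of MB against P7 from -0.52 (edgeR FDR 0.370) to 0.28 (FDR 0.577).

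Insr (chromosome 8, 3150922 to 3279617 in mm9, minus strand) had the narrowest range of the set. It ran from 71.1 to 137 CPM at E15.5, 107 to 136 CPM at P1, 87.6 to 115 CPM at P7, 97.3 to 150.3 CPM at P14 and 80.4 to 101 CPM in MB. Its largest fitted difference in the 7 comparisons was -0.34 (log2, SE 0.23, edgeR FDR 0.232), in MB against P14. Per kb of transcript, Igf1r reads exceeded Insr reads by 1.27 to 3.67 times in every library. The low values of both receptors at E15.5 were those of replicate 3, the library that stood apart by transcript length. The Insr transcript (9355 bases) was in the long class of 4259 bases or more, and that of Igf1r (4181 bases) was not. The part of length in these values was not tested.

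Igf2r, the imprinted receptor that clears IGF2, lies on chromosome 17 (12875272 to 12962530 in mm9, minus strand). It stood at 102, 107 and 62.2 CPM at E15.5, 74.6, 105 and 85.8 CPM at P1, 82.2, 51.1 and 74.8 CPM at P7, and 98.2, 52.1 and 64.7 CPM at P14. In MB it was at 18.0, 9.92 and 10.6 CPM, below all 12 precursor libraries, which overlapped between all pairs of ages. It fell 5.40-fold in MB against P7 (log2 -2.43, SE 0.31, edgeR FDR 2.45e-05) and 5.58-fold against P14 (log2 -2.48, SE 0.31, edgeR FDR 1.28e-05). No change between ages was called (edgeR FDR 0.501 for any difference among the 4).

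Per kb of transcript, Igf2r over Igf1r was 0.0647 to 0.103 in the MB libraries and 0.190 to 0.731 in the 12 precursor libraries, without overlap; this ratio was not tested apart from its genes. The endothelial and the pericyte, fibroblast and meninges markers given above were lower in MB than at P7 as well. At E15.5 they summed to 13.4 to 35.1 and 23.2 to 40.9 CPM, with Igf2r at 62.2 to 107 CPM. They were higher at P1, while Igf2r overlapped between E15.5 and P1. The part of these markers in the fall of Igf2r was not tested.

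Among the substrates, Irs1 (chromosome 1, 82229676 to 82287991 in mm9, minus strand) was the only gene of the set called higher in MB. It stood at 82.3, 114 and 40.0 CPM at E15.5, 134, 125 and 80.3 CPM at P1, 62.3, 66.9 and 83.8 CPM at P7, and 65.6, 48.1 and 53.9 CPM at P14. In MB it was at 280.6, 300.2 and 323 CPM, while no precursor library passed 134 CPM. It rose 4.24-fold in MB against P7 (log2 2.09, SE 0.30, edgeR FDR 7.93e-05) and 5.39-fold against P14 (log2 2.43, SE 0.31, edgeR FDR 1.36e-05). Leaving out any 1 library of MB or P7 gave log2 changes of 2.03 to 2.22.

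Irs1 was lower at P14 than at P1 by 2.02-fold (log2 -1.02, SE 0.29, edgeR FDR 0.0449), and the 2 groups did not overlap. This call was lost without P1 replicate 1 or 2 or any P14 library (FDR 0.0847 to 0.207). The call of Irs1 over the 4 ages (edgeR FDR 0.0423) was lost in 8 of the fits that left out 1 library. Reads of Irs1 are counted in part only: the gene table held 47.1% to 72.5% of the transcript table's count. Gm9747, a gene on the opposite strand (82233112 to 82235933 in GRCm38), lies within Irs1 (82233101 to 82291416 in GRCm38) and had 0 CPM in all libraries. Over the transcript table Irs1 in MB against P7 had a log2 change of 2.23 (edgeR FDR 1.02e-05).

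Irs2 (chromosome 8, 10986980 to 11008458 in mm9, minus strand) encodes the other widely used substrate. It stood at 23.7, 30.1 and 14.4 CPM at E15.5, 31.4, 39.5 and 44.9 CPM at P1, 60.6, 29.1 and 59.0 CPM at P7, 64.3, 50.5 and 57.0 CPM at P14, and 30.7, 68.5 and 60.2 CPM in MB. P7 replicate 2 was the only later library inside the E15.5 range. Irs2 was 2.19-fold higher at P7 than at E15.5 (log2 1.13, SE 0.34, edgeR FDR 0.0154), a call lost without E15.5 replicate 3 (log2 0.85, FDR 0.0897), P7 replicate 1 (0.92, FDR 0.0736) or P7 replicate 3 (0.99, FDR 0.0544). Its change in MB was 0.10 against P7 (log2, SE 0.33, edgeR FDR 0.849).

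Per kb of transcript, the more abundant substrate was not the same in all groups, a description that was not tested apart from the genes. Irs1 exceeded Irs2 by 2.60 to 2.81 times at E15.5 and 1.37 to 3.21 times at P1. The ratio was 0.712 to 1.63 at P7 and 0.645 to 0.716 at P14, where Irs2 was above Irs1 in all 3 libraries. In MB it was 3.01 to 7.39. Irs1, with a mean of 55.1 CPM per kb of transcript, was the most abundant of the 10 genes in MB, and ranked between the fourth and the seventh at the 4 ages.

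Per kb of transcript, Igfbp2 or Igfbp5 was the most abundant of the 10 genes at each age, and the 3 binding proteins differed in their course. Igfbp5 (chromosome 1, 72904506 to 72921458 in mm9, minus strand) encodes a binding protein that attaches to matrix. It stood at 1209, 1174 and 543 CPM at E15.5, 808, 579.8 and 378 CPM at P1, and 387, 356 and 574 CPM at P7. It was at 249.9, 167 and 209 CPM at P14, below every library of the earlier ages, and at 63.4, 19.7 and 17.1 CPM in MB, below every precursor library. The E15.5, P1 and P7 libraries overlapped.

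Igfbp5 fell 13.2-fold in MB against P7 (log2 -3.72, SE 0.50, edgeR FDR 3.67e-05) and 6.26-fold against P14 (log2 -2.65, SE 0.47, edgeR FDR 2.88e-04). Over the 4 ages a difference was called (edgeR FDR 0.00589). No step between neighbouring ages was called, with edgeR FDRs of 0.195 from E15.5 to P1, 0.650 from P1 to P7 and 0.133 from P7 to P14. The longer intervals that were tested lay near the threshold. The longest, from E15.5 to P14, was not tested by itself. Its libraries did not overlap, at 543 to 1209 CPM at E15.5 and 167 to 249.9 CPM at P14. The log2 change from E15.5 to P7 was -1.15 (SE 0.45, edgeR FDR 0.0555) and without E15.5 replicate 3 it was -1.48 (FDR 0.0279). From P1 to P14 it was -1.49 (SE 0.45, edgeR FDR 0.0521), and -1.73 (FDR 0.0228) without P1 replicate 3. Inside 1 counting set the value for MB against P7, which then rests on MB replicate 1 alone, was -2.80 (edgeR FDR 0.00152).

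Igfbp2, the main binding protein of the fetal brain, is the neighbour of Igfbp5 on chromosome 1 (72871077 to 72899048 in mm9, plus strand), and the 2 genes end 5457 bases apart. It stood at 416, 333 and 657 CPM at E15.5, 138, 269.8 and 183 CPM at P1, and 67.3, 39.2 and 79.2 CPM at P7. It was at 243, 308 and 213 CPM at P14 and at 10.2, 36.3 and 44.4 CPM in MB. P7 lay below every library of the other ages, P1 and P14 overlapped, and MB overlapped P7 alone.

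Igfbp2 fell 2.38-fold from E15.5 to P1 (log2 -1.25, SE 0.43, edgeR FDR 0.0276). That call was lost without E15.5 replicate 3 (-0.98, FDR 0.111), P1 replicate 1 (-1.05, FDR 0.0997) or P1 replicate 3 (-1.20, FDR 0.0755), without TMM scaling (FDR 0.0696), and inside 1 counting set, where E15.5 replicate 2 is the only library of its age (-0.76, FDR 0.169). P7 was 7.57-fold below E15.5 (log2 -2.92, SE 0.46, edgeR FDR 1.79e-04), and between -3.14 and -2.64 on the log2 scale whichever library was left out. From P7 to P14 Igfbp2 rose 4.12-fold (log2 2.04, SE 0.44, edgeR FDR 0.0142). That call was lost without P7 replicate 2 (1.80, FDR 0.0807) or P14 replicate 2 (1.88, FDR 0.0693).

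In MB, Igfbp2 was 8.41-fold lower than at P14 (log2 -3.07, SE 0.46, edgeR FDR 6.56e-05), and its log2 change against P7 was -1.03 (SE 0.43, edgeR FDR 0.0799). The change against P7 was called without P7 replicate 2 (-1.27, FDR 0.0494) or MB replicate 3 (-1.41, FDR 0.0375), by DESeq2 (-1.02, FDR 0.0462), and inside 1 counting set against MB replicate 1 alone (-2.61, edgeR FDR 0.00135). Beside the rise from P7 to P14, choroid plexus markers summed to 14.4 to 1979 CPM at P7 and 5136 to 8520.1 CPM at P14. At E15.5, where Igfbp2 was highest, they summed to 27.2 to 293 CPM. The 6 astroglial markers summed to 122 to 356 CPM at E15.5, 2419 to 3656 at P1, 1849 to 4072 at P7, 3218 to 4199 at P14 and 766 to 1309 in MB. Their part in the course of Igfbp2 was not tested.

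Igfbp3 (chromosome 11, 7106089 to 7113900 in mm9, minus strand), the main carrier of IGF in blood, was the least abundant of the 3 binding proteins at the 4 ages per kb of transcript. It stood at 5.50, 6.10 and 8.67 CPM at E15.5, 9.66, 14.8 and 13.4 CPM at P1, 14.7, 17.7 and 11.4 CPM at P7, 18.0, 18.9 and 17.6 CPM at P14, and 23.2, 17.7 and 21.5 CPM in MB. The group means rise in that order; E15.5 did not overlap P1, and from P1 on each group overlapped the next. It rose 1.86-fold from E15.5 to P1 (log2 0.89, SE 0.24, edgeR FDR 0.00753) and was 2.15-fold higher at P7 than at E15.5 (log2 1.11, SE 0.24, edgeR FDR 0.00246). In MB against P7 its log2 change was 0.51 (SE 0.24, edgeR FDR 0.113).

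Per kb of transcript, the 3 binding proteins together gave 456 to 605 CPM per kb at E15.5 and 210.1 to 311 at P1. They gave 97.1 to 162 at P7 and 207 to 275 at P14. In MB they gave 28.2 to 45.9, below all precursor libraries. Igfbp5 was the largest of the 3 in each P7 library, at 52.6% to 61.1% of the sum, while Igfbp2 made up 79.2% to 87.0% at P14. Igfbp3 made up 0.433% to 0.599% of the sum at E15.5 and 18.96% to 34.6% in MB, where the other two were low.

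**Figure D4:**
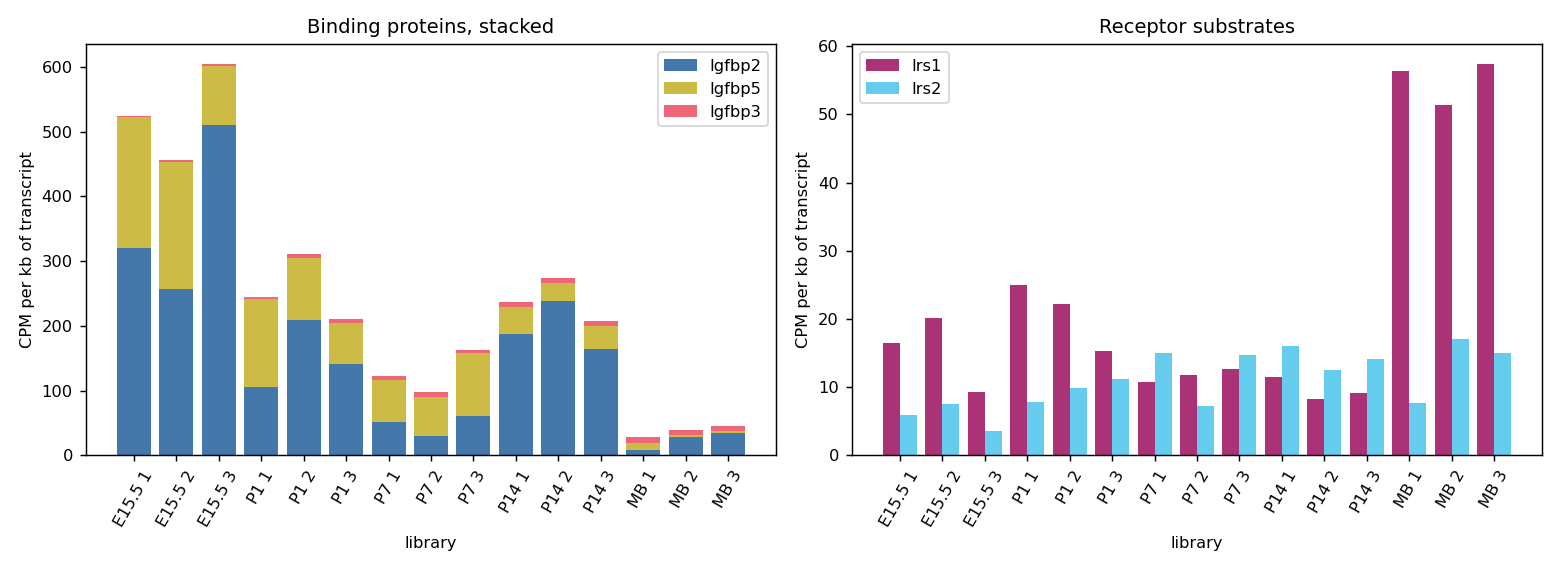
CPM per kb of transcript in each library, with the binding proteins stacked (left) and the receptor substrates side by side (right). The stacked sum is 456 to 605 at E15.5 and 28.2 to 45.9 in MB, and Irs1 is above Irs2 in the E15.5, P1 and MB libraries and below it in the P14 ones.

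The rest of the pathway was followed through a list of 56 genes, of which 51 were tested. From E15.5 to P1, 10 of the 51 were called higher and 12 lower, where 25.4% of all genes were higher and 20.9% lower, with a median log2 change of -0.13 beside 0.031 over all genes. In P7 against E15.5, 12 were higher and 9 lower (21.6% and 16.2% of all genes). In MB against P7, 8 were higher and 13 lower (13.7% and 20.7% of all genes), with a median of -0.069 beside 0.019. In MB against P14, 10 were higher and 15 lower (22.9% and 27.2% of all genes). From P1 to P7, 2 were higher and 3 lower (1.40% and 1.74% of all genes). From P7 to P14, 3 were higher and 1 lower (5.81% and 4.51%), and from P1 to P14, 3 were higher and 5 lower (3.63% and 5.31%).

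Of the adaptors, Grb10, an imprinted adaptor that restrains insulin and IGF receptor signalling, had the largest fall in MB. It stood at 395, 406 and 363 CPM at E15.5, 234, 253 and 122 CPM at P1, 44.4, 48.3 and 74.4 CPM at P7, 58.4, 42.5 and 43.4 CPM at P14, and 7.50, 5.45 and 1.20 CPM in MB. Only P7 and P14 overlapped. Grb10 was 6.97-fold lower at P7 than at E15.5 (log2 -2.80, edgeR FDR 1.92e-04) and 11.8-fold lower in MB than at P7 (log2 -3.55, edgeR FDR 3.27e-05). Sh2b2, an adaptor of the insulin receptor, was 3.30-fold lower at P1 than at E15.5 (edgeR FDR 2.34e-04). Ptpn1, a phosphatase that acts on the insulin receptor, was 1.43-fold higher at P7 than at P1 (edgeR FDR 0.0410).

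Downstream, 2 genes were far higher in MB than at P7. Foxo6, a brain FoxO factor, stood at 36.7, 202 and 113 CPM in MB and 8.33, 8.14 and 13.2 CPM at P7, an 11.9-fold difference (log2 3.57, SE 0.48, edgeR FDR 3.81e-05). Eif4ebp1, the translation repressor that mTOR switches off, stood at 12.1, 107 and 73.4 CPM in MB and 4.79, 4.33 and 9.24 CPM at P7, a 10.5-fold difference (log2 3.40, SE 0.59, edgeR FDR 3.45e-04). In both genes MB replicate 1 was the lowest MB library and was still above all P7 libraries. At E15.5 Eif4ebp1 was at 7.27 to 16.8 CPM, a range that held MB replicate 1. Foxo6 was at 13.6 to 20.5 CPM at E15.5, below all MB libraries. It was 5.01-fold lower at P1 than at E15.5 (edgeR FDR 0.00103). Pik3r2, a regulatory subunit of PI3-kinase, was 2.24-fold higher at P7 than at P1 (edgeR FDR 0.0140) and 1.79-fold higher at P14 than at P1 (edgeR FDR 0.0231). Deptor, an mTOR inhibitor, was 4.07-fold higher at P7 than at E15.5 (edgeR FDR 0.00283). Rps6, the ribosomal protein phosphorylated below mTOR, was 2.07-fold lower at P14 than at P7 (edgeR FDR 0.0401), a value that is uncertain because ribosomal protein genes share reads with their pseudogenes.

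Of 9 other binding proteins and their proteases or inhibitors tested, 3 were called higher and 1 lower from E15.5 to P1, where 25.4% and 20.9% of all genes were. Igfbp7, a low-affinity relative that is abundant in vessels, went from 1.70, 1.42 and 6.12 CPM at E15.5 to 57.1, 69.1 and 98.6 CPM at P1, 23.0-fold higher (log2 4.52, SE 0.43, edgeR FDR 1.91e-06). It moved beside the endothelial markers given above, and their part in its change was not tested. Htra1, a secreted protease, rose 5.46-fold from E15.5 to P1 (edgeR FDR 0.00188). It was at 3.59 to 11.2 CPM at E15.5 and at 13.8, 28.1 and 81.3 CPM at P1, highest in replicate 3. Htra1 rose 4.16-fold from P7 to P14 (edgeR FDR 0.0252) and was 12.9-fold lower in MB than at P14 (edgeR FDR 7.11e-05). Pappa2, a protease that cuts Igfbp5 protein, was 9.26-fold lower in MB than at P7 (edgeR FDR 1.07e-04). Its levels were low, 0.120 to 0.278 CPM in MB and 1.40 to 1.85 CPM at P7. Stc1, a secreted inhibitor of this protease family, fell 5.61-fold from P1 to P7 (edgeR FDR 0.0113). Pappa was 6.09-fold lower at P14 than at P1 (edgeR FDR 0.0238), and Igfbp6 was 2.80-fold higher (edgeR FDR 0.0402). Both were low as well. Pappa was at 3.24 to 5.27 CPM at P1 and 0.669 to 0.809 CPM at P14. Igfbp6 was at 0.644 to 1.36 CPM at P1 and 2.36 to 2.91 CPM at P14.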

How the data were processed

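Poly(A) RNA-seq was measured in 15 mouse libraries, 3 per group. The authors deposited raw counts per Ensembl gene, per start-site model and per transcript. Genome build mm9 and the tools Trimmomatic, TopHat, StringTie and HTSeq are named in the submitters' processing notes, with no versions and no strand setting; positions follow the deposited transcript table. Gene symbols were matched by identifier for 20358 of 21889 genes, and the 5 summary lines were left out.

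Counts were filtered with filterByExpr (minimum count 10, minimum total 15), scaled with TMM and fitted with edgeR 4.0.16 in R 4.3.3, with 1 mean per group over all 15 libraries (10 residual degrees of freedom). Quasi-likelihood F-tests were adjusted over the 15259 genes tested and called at an FDR under 0.05. The SE of a log2 change is its size over the square root of F. The fit was tested on simulated data. Levels per kb used the transcript with most reads and its length. Precision is limited by 3 libraries a group and by low counts of Igf1.

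The 10 genes, the pathway list and the marker lists were chosen with earlier results of these data known. Other pathway genes were named as the 2 called genes with the largest change per comparison and direction, at a mean of at least 1 CPM. Genes of like pattern were the 2 with the highest Pearson correlation of log2 CPM (prior count 2) over 15 libraries, at a mean of at least 5 CPM. Alternatives were DESeq2 1.42.0, no TMM, no filter, only the groups compared, a replicate block, the other tables, 1 counting set and leaving out each library. Promoter sequences came from RefSeq (GRCm38.p6), where 9 of the 10 genes had a match.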

Additional observations from a re-analysis of the deposited data

How the results depend on the processing

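The calls of Igf1, Igf2 and Igfbp3 at P1 and P7 against E15.5, of Igf2, Igf2r, Irs1 and Igfbp5 in MB against both ages, and of Igfbp2 in P7 against E15.5 and MB against P14 held under every alternative that could be run for them. Between P1 and P7, DESeq2, no TMM factors and no filter each called 1 gene of the 10, Igfbp2, instead of 0. Between P7 and P14, fitting only the groups compared called 4 instead of 1, and leaving out 1 library gave 0 to 1. Between P1 and P14, DESeq2, no TMM and no filter each called 2 instead of 1, 1 counting set called 3, only the groups compared called 4, and leaving out 1 library gave 0 to 2. The number of all genes called moved more. P7 against P1 gave 1209 by DESeq2, 203 with only the groups compared, 9 without P1 replicate 2 and 888 without P1 replicate 3. P14 against P7 gave 3838 with only the groups compared and 125 without P14 replicate 2, and P14 against P1 gave 4089, and 154 without P14 replicate 2 or 2714 without P1 replicate 3. P1 against E15.5 gave 4493 inside 1 counting set, where E15.5 replicate 2 is the only library of its age. MB against P7 inside 1 set likewise rests on MB replicate 1 alone.

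Replicate numbers did not pair the libraries: deviations from the group mean correlated at -0.312 to 0.332 (median -0.013) in 30 same-number pairs and at -0.484 to 0.465 in 60 others, and 4 of 15 libraries matched their own number best. With the replicate block the number of the 10 genes called was the same in each pairwise comparison and 6 instead of 7 over the 4 ages. The block lost the calls of Irs1 between P1 and P14 (-0.99, edgeR FDR 0.0572) and over the ages (FDR 0.0609), and gained Igfbp5 between P1 and P14 (-1.44, FDR 0.0419).

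Of the values of single genes under the alternatives, 1015 kept direction and side of the threshold. Of the rest, 34 passed it newly, 28 lost it and 41 changed sign. For the test over the 4 ages, which has no direction, only the side of the threshold was compared. All sign changes were in changes that were not called; the cause was not tested. Inside 1 counting set they were Igf1r (-0.040), Insr (-0.14) and Irs1 (-0.0092) in P1 against E15.5, Insr (0.025) and Irs1 (0.22) in P7 against E15.5, Insr (0.022) and Irs2 (-0.70) in MB against P7, and Irs2 (0.17) in MB against P14. Igf2r in P1 against E15.5 was 0.19 without TMM and 0.0087 with the block, and Igf1r in P7 against P1 was -0.0014 by DESeq2, -0.12 without TMM and -0.037 with the block. Igf1 in MB against P14 was 0.49 in the start-site table and 0.52 in the transcript table. Leaving out 1 library gave ranges of -0.042 to 0.55 (Igf1r), -0.29 to 0.10 (Igf2r) and -0.13 to 0.34 (Insr) in P1 against E15.5; -0.46 to 0.67 (Igf1r), -0.44 to 0.022 (Insr) and -0.50 to 0.21 (Irs1) in P7 against E15.5; and -0.69 to 0.14 (Igf1) and -0.79 to 0.34 (Igf1r) in P7 against P1. The ranges were -0.64 to 0.49 (Igf1r), -0.25 to 0.23 (Igf2r) and -0.065 to 0.35 (Irs2) in P14 against P7; -0.22 to 0.27 (Igf2) and -0.25 to 0.079 (Insr) in P14 against P1; -0.85 to 0.28 (Igf1r), -0.16 to 0.041 (Insr) and -0.17 to 0.38 (Irs2) in MB against P7; and -0.33 to 0.17 (Irs2) in MB against P14.

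The start-site table matched 6 of the 10 genes, so no number called is given for it. P7 against P1, P14 against P7 and the 4-age test could not be run inside 1 counting set. With 3 libraries a group, small changes of the receptors were not detectable beyond the spread between libraries.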

Other observations

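The genes whose log2 CPM ran most like each of the 10 over the 15 libraries are given as a description, with the groups and any unequal depth shared by all points. Igf2 was most like Nid2 (Pearson r 0.989), a basement membrane protein, and Edn3 (0.985), an endothelin ligand. Nid2 stood at 2.97 to 6.35 CPM at E15.5, 49.0 to 90.2 CPM at P1 and 3.28 to 4.01 CPM in MB. Igfbp5 was most like Slc12a7 (0.990), a potassium-chloride cotransporter, and Nckap5 (0.987). Igf2r was most like Sh3pxd2a (0.976) and Rbms3 (0.966). Sh3pxd2a was at 2.84 to 7.70 CPM in MB and 15.3 to 33.3 CPM in the precursor libraries. Irs1 was most like Prrg3 (0.981), at 50.5 to 63.5 CPM in MB and 20.2 to 38.4 CPM in the precursors, and Nin (0.965), a centrosome protein. Igfbp2 was most like Klhdc8b (0.981), which was also lower at P7 (8.72 to 12.9 CPM) than at P14 (19.05 to 26.3 CPM), and Apbb2 (0.966). The receptors Igf1r and Insr, which changed least, had the weakest likeness, at most 0.877 (E130308A19Rik) and 0.856 (Rc3h2). Igf1 was most like Lmo7 (0.920), Irs2 like Slc45a4 (0.957) and Igfbp3 like A230050P20Rik (0.961).

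Within Igf2, reads over the shorter of 2 tabulated transcripts were 89.9% to 97.9% of those over the longer in all 15 libraries, so the annotated starts could not be told apart in this table.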
